A study of Mus musculus with 9 samples.

Results

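The genes described here encode the proteasome, the protease complex that degrades ubiquitin-tagged proteins, together with its activators, its inhibitor and the chaperones that assemble it. They were chosen by symbol: the letters Psm, a letter from a to g and a number, without the immunoproteasome genes Psmb8, Psmb9 and Psmb10, and with Adrm1 and Pomp added. The rule found 49 of the 36410 rows of the count table, and 48 of these were among the 12678 genes that could be tested. The 20S core accounted for 14 rows (7 of the alpha ring and 7 of the beta ring), the 19S cap for 18, activators for 4, the inhibitor Psmf1 for 1, 20S assembly chaperones for 5 and 19S assembly chaperones for 3. The remaining rows were 2 tissue-restricted core forms (Psma8 of testis and Psmb11 of thymus) and 2 rows that fit by name only (Psmc3ip, a meiotic recombination factor, and Psme2b, a near copy of Psme2).

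Ribosome-protected fragments were counted in 3 immortalized mouse striatal cell lines of strain C57/BL6, with 3 libraries per line from independent rounds of culture. Control cells (STHdhQ7/Q7) carry 7 glutamines on each Htt allele, HD-het cells (STHdhQ7/Q111) carry 7 on 1 allele and 111 on the other, and HD-homo cells (STHdhQ111/Q111) carry 111 on each. All cells received cycloheximide, which arrests elongating ribosomes, for 10 min, and fragments of 26 to 32 nt were taken from 80S monosomes after RNase T1 and RNase A. Each genotype was represented by 1 line, so genotype and line cannot be told apart, and p-values measure the spread between cultures of a line. A footprint count depends on mRNA abundance and on ribosomes per mRNA, and these cannot be told apart here, nor can fewer cells of a type and less RNA per cell.

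Library totals ran from 22504543 to 41888701 counts, and 1 library of HD-homo (replicate 1) stood apart for core subunits, as given with those results. Most listed markers of striatal projection neurons were largely absent. Drd1 and Drd2 had no count in any library. On that list 10 of the 13 markers stayed under 1 CPM (counts per 1e6 of the library total after TMM scaling) in every library. The rest were Ppp1r1b (means of 12.04, 5.18 and 10.5 CPM in control, HD-het and HD-homo), Foxp1 (33.4, 43.1 and 56.9) and Penk (1.42, 0.824 and 2.92). The summed level of 10 precursor markers was 9621 to 9883 CPM in control libraries, 9030 to 9853 CPM for HD-het and 6028 to 6560 CPM for HD-homo. Most of it was Vim (means of 9228, 8275 and 6197 CPM in the same order), and other precursor markers did not follow it. Nes (400, 1086 and 7.01 CPM), Sox2 (51.1, 33.9 and 2.26) and Pax6 (17.3, 24.8 and 0.0759) were lowest in HD-homo. Dlx1, Dlx2 (9.25, 2.11 and 19.9 CPM) and Dlx5 were highest there. The summed level of 6 mesenchymal and smooth muscle markers was 6799 to 9691, 28364 to 30462 and 5559 to 7078 CPM, with Thy1 near 0 throughout. Its members differed in direction between control and HD-homo. Acta2 (means of 4099, 8386 and 267 CPM), Tagln (535, 3212 and 47.5) and Col3a1 (431, 1483 and 352) were lowest in HD-homo. Col1a2 (24.0, 88.9 and 1027 CPM) was highest there, and Col1a1 (3343, 16518 and 4567) was highest in HD-het. The lines thus differed in marker genes, and the part of this in the proteasome results was not tested.

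The proteasome core is a barrel of stacked rings. Outer alpha rings gate the entry, and inner beta rings hold the proteolytic sites, supplied by Psmb6 (caspase-like), Psmb7 (trypsin-like) and Psmb5 (chymotrypsin-like). The 19S cap binds ubiquitin chains, removes them and threads the substrate into the core with a ring of ATPases, whereas the activators open the core without ATP. Assembly is stepwise and needs chaperones that leave or are degraded once the particle is complete. In mammalian cells the transcription factor NRF1 (gene Nfe2l1) raises subunit genes together when proteasome activity falls, through antioxidant response elements in their promoters.

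As a description of promoter letters, the 250 bases before annotated transcript starts were searched on either strand. A gene with several starts was counted where any of them had a match. The motifs were the core of that element in its forms TGACNNNGC and TGAGNNNGC, which differ at 1 base, and CCAAT, the site of NF-Y. Whether a match acts in control of these genes was not tested. Sequences were from RefSeq (GRCm38.p6), where 26 of the 32 core and cap subunits had an entry. TGACNNNGC was present before 5 of the 26 (19.2%, against 11.5% of 27025 genes in that table), TGAGNNNGC before 7 (26.9%, against 16.3%) and CCAAT before 11 (42.3%, against 37.5%). None of the activators or the inhibitor held either form of the element core, and of 7 assembly chaperones with an entry, 1 held the first form and 2 the second. A match is a description of letters only. The windows below, from subunits and a cap chaperone, hold TGACNNNGC in capitals and are read 5′ to 3′ on the gene's strand. Where the capitals start with GC, the match is on the opposite strand. The start used for Psmb6 lies downstream of the first base of the annotated gene, so that its window is inside the gene.
Psmb5 (chr14:54618019-54618057, minus strand): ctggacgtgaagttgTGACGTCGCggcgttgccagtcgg
Psmb6 (chr11:70525333-70525356, plus strand): gcggactaaagagagTGACGGAGC
Psmc6 (chr14:45329582-45329620, plus strand): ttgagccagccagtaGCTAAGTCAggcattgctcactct
Psmd12 (chr11:107479278-107479304, plus strand): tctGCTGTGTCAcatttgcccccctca
Psmd9 (chr5:123228144-123228182, plus strand): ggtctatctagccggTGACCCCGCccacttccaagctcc

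Taken as summed levels, core, cap and activators were all lowest in HD-het cells. The 14 core genes summed to 5054, 5193 and 5052 CPM in control, 3605, 3779 and 3679 CPM in HD-het and 5684, 4938 and 5035 CPM in HD-homo libraries. The 18 cap genes summed to 6174, 6067 and 6306 CPM in control, 5149, 5054 and 5071 CPM in HD-het and 6247, 6290 and 6412 CPM in HD-homo libraries. For both complexes every HD-het library lay below every control and HD-homo library, while control and HD-homo libraries overlapped.

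The 4 activators summed to 337, 313 and 352 CPM in control, 229, 240.5 and 221 CPM in HD-het and 375, 418 and 412 CPM in HD-homo libraries, with no overlap between any pair of lines. Most of the HD-het decrease in this sum was Psme3. Its means were 183 CPM in control and 92.2 CPM in HD-het, where the sums had means of 334 and 230 CPM. As log2 ratios of mean sums, HD-het differed from control by -0.47 in the core, -0.28 in the cap and -0.54 in the activators, and HD-homo differed from control by 0.03, 0.03 and 0.27. With the median level of a class in each library in place of its sum, the HD-het differences were -0.39, -0.39 and -0.16. For the activators, HD-het and control libraries then overlapped. Sums were described and not tested, since their members were chosen with results known.

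**Figure D1:**
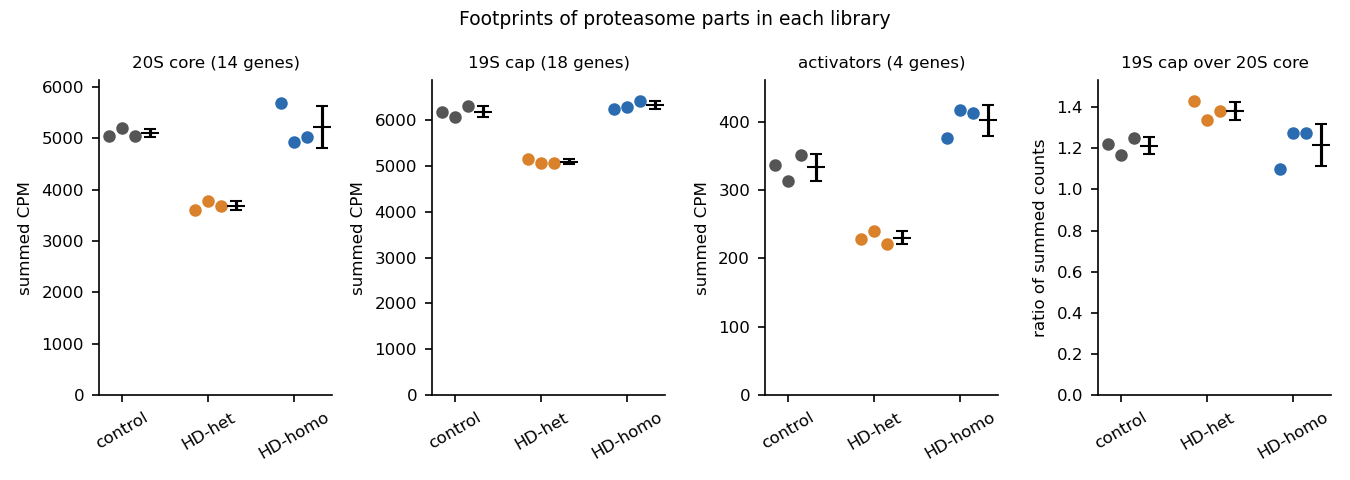
Summed CPM of the 20S core, 19S cap and activators, and the ratio of summed cap to core counts, in each library of the 3 lines (points), with mean and SD of 3 libraries (bars). HD-het libraries lie lowest in the 3 sums and highest in the ratio, where their mean is 1.38 against 1.21 in control.

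As a ratio of sums, the balance between cap and core differed too. With the median level of a class in each library in place of sums, HD-het differed from control by -0.39 in both core and cap. The ratio of summed cap to summed core counts was 1.22, 1.17 and 1.25 in control libraries, 1.43, 1.34 and 1.38 in HD-het libraries and 1.10, 1.27 and 1.27 in HD-homo libraries. HD-het lay above the other lines with no overlap, and HD-homo replicate 1 lay below all others. Core coding sequences are short (606 to 834 nt), and genes of that length lay slightly lower in HD-het. Over the 1318 tested genes in that range, the median log2 difference from control was -0.09, against 0.02 over all genes tested. Of them 35.4% were called lower and 25.6% higher, against 29.1% and 31.0% of all genes. With offsets for coding length and GC content fitted to each library, the median log2 difference was -0.37 for the core and -0.34 for the cap, against -0.45 and -0.34 without them.

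Between HD-het and control cells, 30 of the 48 members tested were lower in HD-het and 0 were higher at an adjusted p under 0.05 (edgeR's quasi-likelihood test). Over all 12678 genes, 29.1% were called lower and 31.0% higher. Among the 1979 genes with a mean of at least 100 CPM, 48.9% were called lower, and among the 35 members at that level 24 were, or 68.6%. The median log2 difference of the members was -0.34, against 0.02 over all genes. Libraries of the lines did not overlap for 37 members, or 77.1%, near the 71.2% over all genes. Of the 30 calls, 27 held under each of the 18 alternative settings, and those of Psmd9, Psmf1 and Psmg4 were lost under 4, 2 and 1 of them.

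All 14 core genes lay lower in HD-het libraries than in control libraries without overlap, and 10 passed the test. In the alpha ring 6 of 7 genes were lower, with a median log2 difference of -0.51, and in the beta ring 4 of 7, with a median of -0.39. Psmb3, a structural beta subunit, gave 505, 519 and 521 CPM in control, 268, 281 and 257 CPM in HD-het and 639, 503 and 557 CPM in HD-homo libraries. Its HD-het libraries lay at about the same level, far below all others. The log2 difference of Psmb3 from control was -0.94 ± 0.09 (SE, n = 3 per line, adjusted p = 8.55e-06, edgeR's quasi-likelihood test). Of the coding windows of Psmb3 as long as the shortest fragment, 87.0% also occur elsewhere in the genome. How such reads were assigned is not given in the sources used here.

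Psma5, an alpha subunit, gave 335, 358 and 334 CPM in control, 182, 194 and 182 CPM in HD-het and 353, 258 and 281 CPM in HD-homo libraries. HD-het was lowest without overlap, and HD-homo replicate 1 alone among its line reached the control range. The HD-homo difference from control did not pass (log2 -0.20, adjusted p = 0.1455, edgeR). Without that library it did, with HD-homo lower (log2 -0.35, adjusted p = 0.00643, edgeR). The log2 difference of HD-het from control was -0.88 ± 0.11 (SE, adjusted p = 4.15e-05, edgeR), and 91.2% of Psma5 windows also occur elsewhere in the genome. Psma2, which helps to gate the pore, gave 425, 433 and 429 CPM in control, 248, 257 and 281 CPM in HD-het and 466, 468 and 420.0 CPM in HD-homo libraries. Control and HD-homo overlapped and HD-het was lower than either, by -0.71 ± 0.08 on the log2 scale against control (SE, adjusted p = 1.95e-05, edgeR).

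Of the 3 catalytic subunits, 1 was called lower in HD-het, and differences between the subunits were not tested. Psmb6 gave 231, 241 and 249 CPM in control, 161, 155 and 159 CPM in HD-het and 294, 255 and 251 CPM in HD-homo libraries. It was lower in HD-het without overlap, with a log2 difference of -0.60 ± 0.08 (SE, adjusted p = 7.89e-05, edgeR).

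Psmb7 gave 377, 369 and 352 CPM in control, 324, 333 and 336 CPM in HD-het and 465, 425 and 444 CPM in HD-homo libraries. The lines lay apart from each other, but the log2 difference of HD-het from control, -0.14 ± 0.07 (SE), did not pass the test (adjusted p = 0.103, edgeR), and that of HD-homo, 0.28 ± 0.07, did (adjusted p = 0.00749).

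Psmb5 gave 128, 145 and 129.7 CPM in control, 125, 120.2 and 127 CPM in HD-het and 201, 133 and 133 CPM in HD-homo libraries. HD-homo replicate 1 stood above the other libraries, and none of the 3 comparisons of Psmb5 passed the test (adjusted p = 0.502, 0.242 and 0.0586, edgeR). The log2 difference of HD-homo from control was 0.21, and -0.01 without that library. Against HD-het it passed without HD-homo replicate 2 (log2 difference 0.44, adjusted p = 0.0194) or replicate 3 (0.43, adjusted p = 0.0257), and also with total counts (adjusted p = 0.0199) and with no filter (0.0430). Of the coding windows of Psmb5 as long as the shortest fragment (26 bases), 82.7% also occur elsewhere in the genome, at loci annotated as Gm3375 and Psmb5-ps, and how such reads were assigned is not given in the sources used here.

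**Figure D2:**
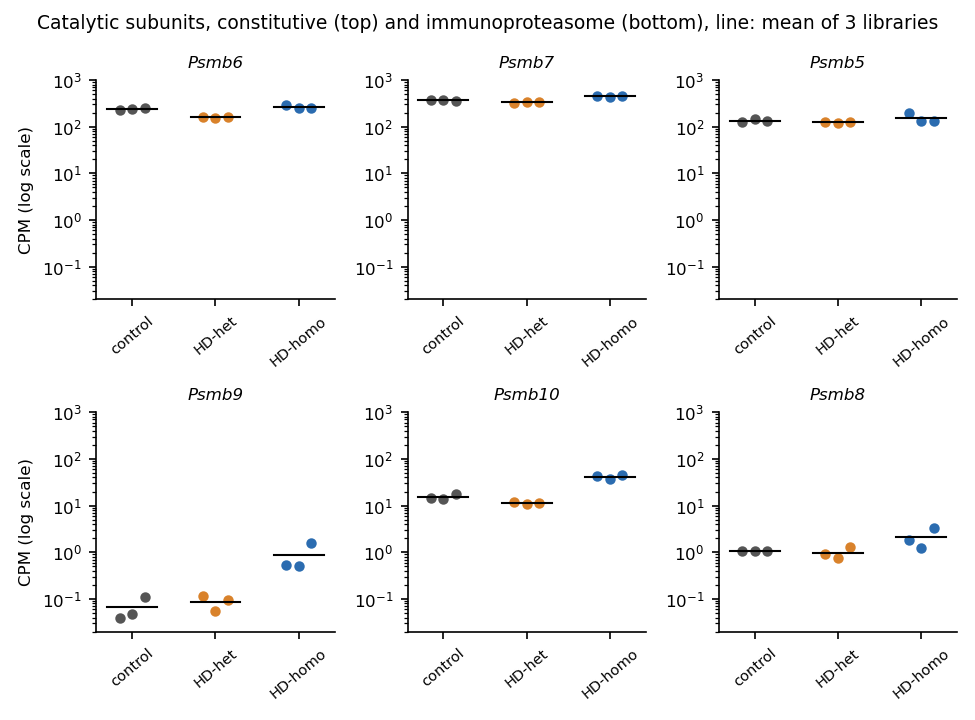
CPM of the constitutive catalytic subunits (top) and of their immunoproteasome counterparts (bottom) in each library, on a log axis (points), with the mean of 3 libraries as a line. Psmb10 reaches 36.6 to 46.3 CPM in HD-homo libraries and 10.8 to 17.4 CPM in the others, and Psmb9 stays lowest, with counts of 13 to 36 in HD-homo libraries and of 1 to 3 in the others.

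In the cap 12 of 18 genes were lower in HD-het and the rest did not pass. All 4 of the non-ATPase base subunits and receptors were lower: the scaffolds Psmd1 and Psmd2 and the ubiquitin receptors Psmd4 and Adrm1, with log2 differences from -0.52 to -0.30. Adrm1 gave 201, 212 and 217 CPM in control, 175, 148 and 176 CPM in HD-het and 228, 217 and 214 CPM in HD-homo libraries. HD-het was lowest without overlap (log2 difference -0.34 ± 0.09, SE, adjusted p = 0.00527, edgeR), and 93.5% of Adrm1 windows recur elsewhere in the genome.

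Of the 6 ATPases, Psmc2, Psmc4 and Psmc5 were lower, whereas Psmc1, Psmc3 and Psmc6 did not pass. Psmc4 gave 233, 223 and 253 CPM in control, 176, 170.5 and 177 CPM in HD-het and 211, 200.2 and 201 CPM in HD-homo libraries, so that HD-homo lay between the other lines without overlap. Psmc1 gave 433, 395 and 420.4 CPM in control, 369, 338 and 352 CPM in HD-het and 298, 380.2 and 363 CPM in HD-homo libraries. Its libraries in both mutant lines lay below every control library, though the HD-het difference had an adjusted p of 0.0531 (edgeR) and passed under some alternatives, with 0.0156 as a fit of the 6 libraries compared.

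Of the 8 lid genes, 5 were lower (Psmd3, Psmd6, Psmd7, Psmd11 and Psmd12, with a largest fall of -0.65 in Psmd3), and Psmd8, Psmd13 and the deubiquitinase gene Psmd14 did not pass. The median log2 difference of the lid was -0.34. Of 16 core and cap genes with under 5% of windows found elsewhere, 12 were lower (median log2 difference -0.37), and of 9 with at least 50%, 7 were lower (median -0.35).

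Of the activators only Psme3, a nuclear activator that works without ubiquitin, passed the test in HD-het. Psme3 gave 188, 167 and 194 CPM in control, 89.5, 93.2 and 93.9 CPM in HD-het and 190.2, 206 and 222 CPM in HD-homo libraries. HD-het lay far below the other lines, which overlapped, and the log2 difference from control was -0.99 ± 0.09 (SE, adjusted p = 3.74e-06, edgeR), the largest fall of any member.

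Psme1 and Psme2 form the interferon-inducible activator ring. Psme1 gave 48.9, 46.7 and 57.5 CPM in control, 44.9, 46.2 and 38.6 CPM in HD-het and 74.8, 94.3 and 78.9 CPM in HD-homo libraries. Psme2 gave 19.3, 16.6 and 20.5 CPM in control, 17.8, 17.8 and 18.7 CPM in HD-het and 38.6, 48.1 and 43.9 CPM in HD-homo libraries. For both genes HD-homo lay above the other lines without overlap, and the HD-het difference from control did not pass (adjusted p = 0.101 for Psme1 and 0.70 for Psme2, edgeR).

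Psme4, which encodes a large activator linked to histone degradation, gave 80.1, 81.8 and 80.2 CPM in control, 76.4, 83.2 and 70.3 CPM in HD-het and 71.8, 69.3 and 67.3 CPM in HD-homo libraries. HD-homo lay below control, and HD-het overlapped both. This order depended on the offsets for coding length and GC. With them Psme4 was called lower in HD-het than in control (log2 -0.24, adjusted p = 0.0223, edgeR). The HD-homo difference from control was then -0.045 (adjusted p = 0.678). Relative to each other, Psme1 and Psme2 summed to 0.362 to 0.403 of the Psme3 counts in control libraries, 0.61 to 0.701 for HD-het and 0.553 to 0.691 for HD-homo, so that the ratio in either mutant line lay above control without overlap.

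Of the 5 assembly chaperones of the core, 4 were lower in HD-het. Pomp, which sits inside the partly built core and is its first substrate, gave 158, 145 and 164 CPM in control, 92.3, 93.6 and 91.8 CPM in HD-het and 154, 155 and 176 CPM in HD-homo libraries. HD-het was lowest without overlap, by -0.75 ± 0.08 on the log2 scale (SE, adjusted p = 1.66e-05, edgeR). Psmg1, Psmg3 and Psmg4 were also lower, with log2 differences of -0.29, -0.63 and -0.46, and the call of Psmg4 was lost with offsets for length and GC (adjusted p = 0.111).

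Psmg2, the partner of Psmg1, gave 34.9, 38.1 and 34.1 CPM in control, 40.7, 39.2 and 40.9 CPM in HD-het and 61.6, 51.8 and 64.8 CPM in HD-homo libraries. Control was lowest, HD-het next and HD-homo highest, without overlap, though the HD-het difference from control (log2 0.17 ± 0.10, SE) did not pass (adjusted p = 0.142, edgeR). Of the cap chaperones only Psmd9 was lower in HD-het (log2 difference -0.25, adjusted p = 0.0287, edgeR), a call that was lost without control replicate 1 (adjusted p = 0.052), control replicate 3 (0.109) or HD-het replicate 2 (0.0887), and with offsets for coding length and GC (log2 difference -0.11, adjusted p = 0.276).

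The inhibitor Psmf1 gave 61.6, 59.3 and 65.5 CPM in control, 54.8, 51.4 and 47.4 CPM in HD-het and 85.2, 76.8 and 75.3 CPM in HD-homo libraries. The 3 lines did not overlap, and its decrease in HD-het (log2 -0.28 ± 0.09, SE, adjusted p = 0.0161, edgeR) did not pass without control replicate 3 (adjusted p = 0.0632) or with those offsets (0.0607).

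**Figure D3:**
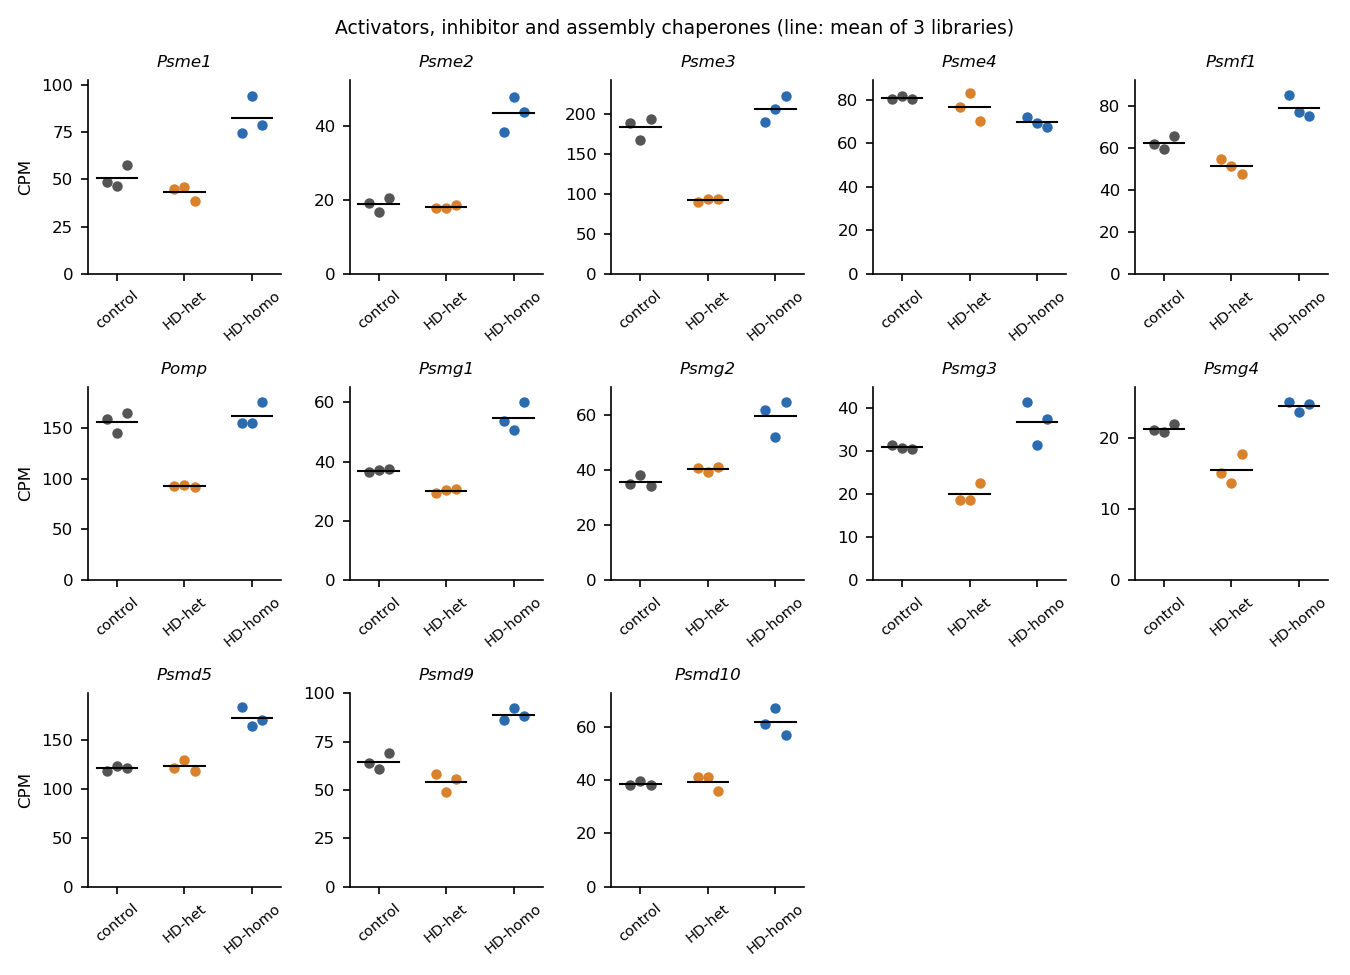
CPM of the activators Psme1 to Psme4, the inhibitor Psmf1 and the assembly chaperones in each library (points), with the mean of 3 libraries as a line and each axis starting at 0. Psme3 and Pomp are lowest in HD-het, at 89.5 to 93.9 and 91.8 to 93.6 CPM, and Psme1, Psme2, Psmg1, Psmg2, Psmd5, Psmd9 and Psmd10 are highest in HD-homo.

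Between HD-homo and control cells 3 of 14 core genes and 6 of 18 cap genes passed the test, in either direction, and higher members were found in most classes. In all, 15 members were higher and 4 lower, or 31.2% and 8.33% of those tested, against 23.3% and 22.3% of all genes. Among the 35 members at 100 CPM or more, 7 were higher, or 20%, against 18.0% of all genes at that level. At that level the share of members higher was thus near the background. The median log2 difference was 0.14 over the members, 0.11 in the core and 0.05 in the cap, and that of the core was 0.01 without HD-homo replicate 1. The lines did not overlap for 28 members, or 58.3%, near the 55.5% over all genes.

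Beside Psme2b, the activator genes Psme2 and Psme1 were higher, with log2 differences from control of 1.21 ± 0.11 (SE, adjusted p = 4.24e-06, edgeR) and 0.70 ± 0.12 (adjusted p = 5.35e-04). These rises, seen in the libraries given above, held under each alternative. The row Psme2b gave almost the same values as Psme2, 16.6 to 20.4 CPM in control, 17.6, 17.8 and 18.5 CPM in HD-het and 38.3, 47.8 and 43.7 CPM in HD-homo libraries, and a log2 difference of 1.21. Psme2b lies on chromosome 11 with its coding sequence in 1 exon (11 in Psme2). That sequence has the length of that of Psme2 (720 nt) and is identical at 715 positions, and 567 of the 695 windows of Psme2 occur in it.

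How reads that fit either gene were counted is not given in the sources used here, so the 2 rows are uncertain as separate measurements.

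All 3 cap chaperones were higher in HD-homo. Psmd10, known as gankyrin, gave 38.0, 39.5 and 38.3 CPM in control, 41.1, 41.3 and 35.8 CPM in HD-het and 61.1, 67.0 and 56.8 CPM in HD-homo libraries. HD-homo lay above the other lines, which overlapped, by 0.68 ± 0.09 on the log2 scale against control (SE, adjusted p = 1.01e-04, edgeR). Psmd5 and Psmd9 were higher by 0.51 and 0.46. Of the core chaperones, Psmg1 (0.57) and Psmg2 (0.73 ± 0.10, SE, adjusted p = 8.41e-05, edgeR) were higher, and Psmg3, Psmg4 and Pomp did not pass.

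The inhibitor Psmf1 was higher by 0.35 (adjusted p = 0.00651, edgeR). In core and cap the higher genes were Psmb4, Psmb7, Psmc2, Psmd7, Psmd11 and Psmd14, with log2 differences from 0.21 to 0.38. The calls of Psmd14, Psmd11, Psmb4 and Psmd7 were lost under 11, 8, 3 and 2 of the 18 alternatives.

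The 4 lower members were Psma3, Psmc1, Psmc4 and Psme4. Psma3, an alpha subunit, gave 583, 603 and 579 CPM in control, 386, 439 and 411 CPM in HD-het and 497, 434 and 443 CPM in HD-homo libraries. It was lower than control in both mutant lines without overlap, by -0.51 and -0.36 on the log2 scale (adjusted p = 2.64e-04 and 0.00399, edgeR), and 93.0% of its windows recur elsewhere in the genome. Psmc1, Psmc4 and Psme4 differed by -0.26, -0.21 and -0.22 (adjusted p = 0.0452, 0.0371 and 0.0455), and these calls were lost under 9, 6 and 10 of the 18 alternatives. The count of lower members was 1 when control replicate 1, its replicate 3 or the third HD-homo library was left out, and 2 when control replicate 2 was.

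**Figure D4:**
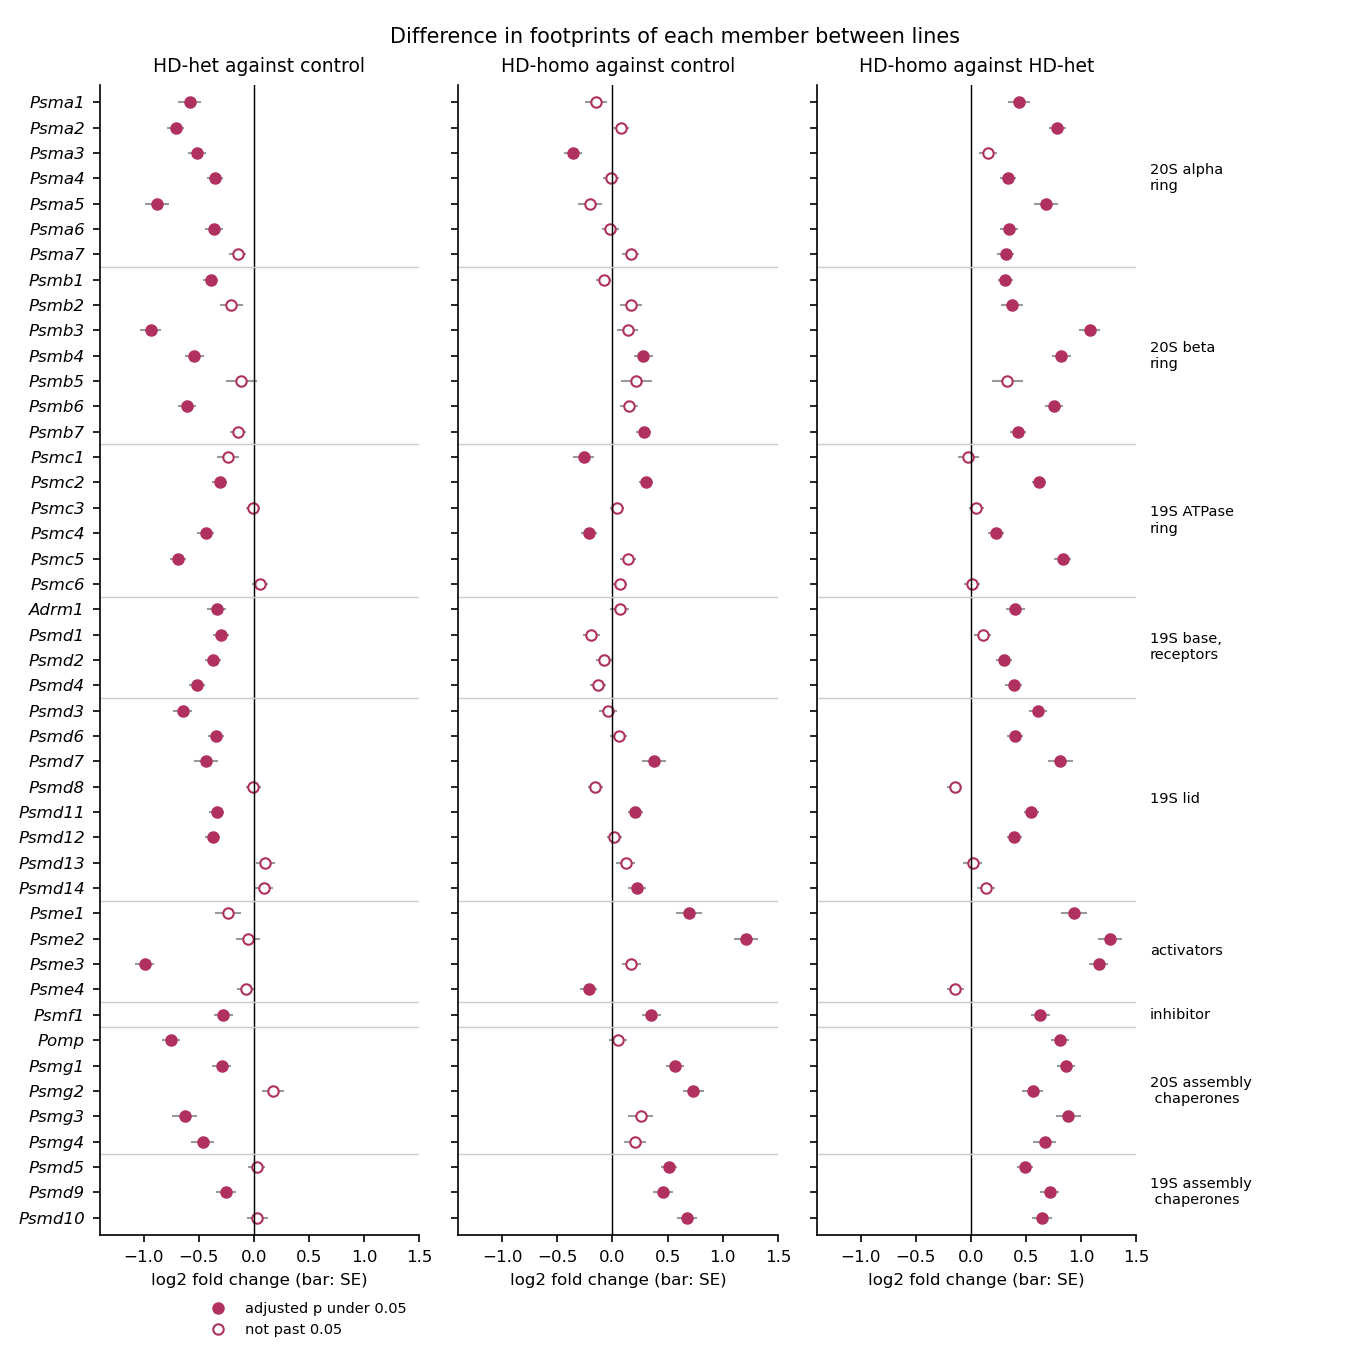
Log2 fold change of 45 members, grouped by role, in the 3 comparisons between lines (points, with bars for SE; filled where the adjusted p is under 0.05 by edgeR's quasi-likelihood test). Most points lie left of 0 for HD-het against control, with 30 of the 48 members tested called lower, around 0 for HD-homo against control, and right of 0 for HD-homo against HD-het, with 37 of 48 called higher.

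More members were called between HD-homo and HD-het, which share the 111-glutamine allele. Of the 48 members 37 were higher in HD-homo and 0 lower, or 77.1%, against 34.6% called higher and 32.8% lower over all genes. Among genes at 100 CPM or more 47.9% were called higher, and 26 of the 35 members at that level were, or 74.3%. The median log2 difference was 0.46 over the members, 0.40 in the core, 0.34 in the cap and 1.05 in the activators, against 0.02 over all genes. The lines did not overlap for 40 members, or 83.3%, against 69.5% over all genes. This comparison shares its libraries with the others and is no independent support for them.

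Here 12 of 14 core genes were higher, all but Psma3 and Psmb5, with 11 of 18 cap genes, all 8 chaperones and 3 of 4 activators. Beside Psme2b, the highest were Psme2 (1.26 ± 0.11 on the log2 scale, SE, adjusted p = 1.77e-06, edgeR), Psme3 (1.16), Psmb3 (1.07) and Psme1 (0.93). The cap genes that did not pass were Psmc1, Psmc3, Psmc6, Psmd1, Psmd8, Psmd13 and Psmd14. The 5 calls lost under some setting were those of Psma6, Psma7, Psmb1 and Psmb2, each with offsets for length and GC, and of Psmc4, without HD-het replicate 2 (adjusted p = 0.0516) and with only the 6 libraries compared (0.0704).

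Across the 3 lines, 40 of the 48 members differed, against 78.4% of all genes. Every HD-het library lay below every other library for 33 members, or 68.8%, against 24.8% of all genes tested: 13 of 14 core genes, 11 of 18 cap genes, 4 of 5 core chaperones, 2 of 4 activators and 1 of 3 cap chaperones among them. The 20 members that were lower in HD-het, higher in the homozygous than the heterozygous line and not called between HD-homo and control included Pomp, Psme3, Adrm1 and 8 core genes. Those not called in any comparison were Psma8, Psmb5, Psmc3, Psmc6, Psmd8 and Psmd13. The testis form Psma8 stayed between 0.809 and 2.92 CPM, and the thymus form Psmb11 had no count in any library. Psmc3ip was lower in HD-het than in control (log2 difference -0.42) and is no proteasome subunit.

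Since the mature complex holds equal copies of each subunit within core and cap, levels were also set per coding length. In CPM per kb of coding sequence the core genes had a median of 479.9 in control cells, 377 for HD-het and 508 for HD-homo, and the cap genes 266, 201 and 268. The core genes spread over 4.93-fold in control, from Psmb5 (169 ± 11.6, SD, n = 3) to Psmb3 (833 ± 14.5). Psmb5 stayed lowest of the core in each line, at 156 ± 4.28 CPM per kb for HD-het and 196 ± 49.1 for HD-homo. The levels of Psmb5 and Psmb3 depend on how reads that also fit elsewhere were counted. Windows found elsewhere made up 82.7% for Psmb5 and 87.0% for Psmb3.

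In the HD-het line Psmb3 fell to 435 ± 20.1 CPM per kb, and Psma3 was highest of the core at 536 ± 34.9, near Psma6 at 496 ± 38.5. The same limit applies to Psma3, with 93.0% of windows found elsewhere. The cap genes spread over 2.12-fold in control and 3.48-fold in HD-het, where Psmd14 was highest (383 ± 22.1) and Psmd3 lowest (110.0 ± 7.2 CPM per kb). The coefficient of variation over the 18 cap genes was 27.1% ± 0.887 (SD over 3 libraries) in control, 33.4% ± 2.08 for HD-het and 34.1% ± 3.27 for HD-homo, and over the 14 core genes it was 34.6%, 31.9% and 33.9%.

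Footprint levels per kb of coding length differed widely among activators and chaperones. Psme3 stood at 229 ± 17.3 CPM per kb in control, Psme1 at 68.1 ± 7.6, Psme2 at 26.1 ± 2.73 and Psme4 at 14.6 ± 0.171. Among the core chaperones Pomp, at 366 ± 22.9, was well above Psmg1 to Psmg4, at 42.5 to 83.6 CPM per kb. The level of Psme2 depends on how reads shared with Psme2b were counted.

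**Figure D5:**
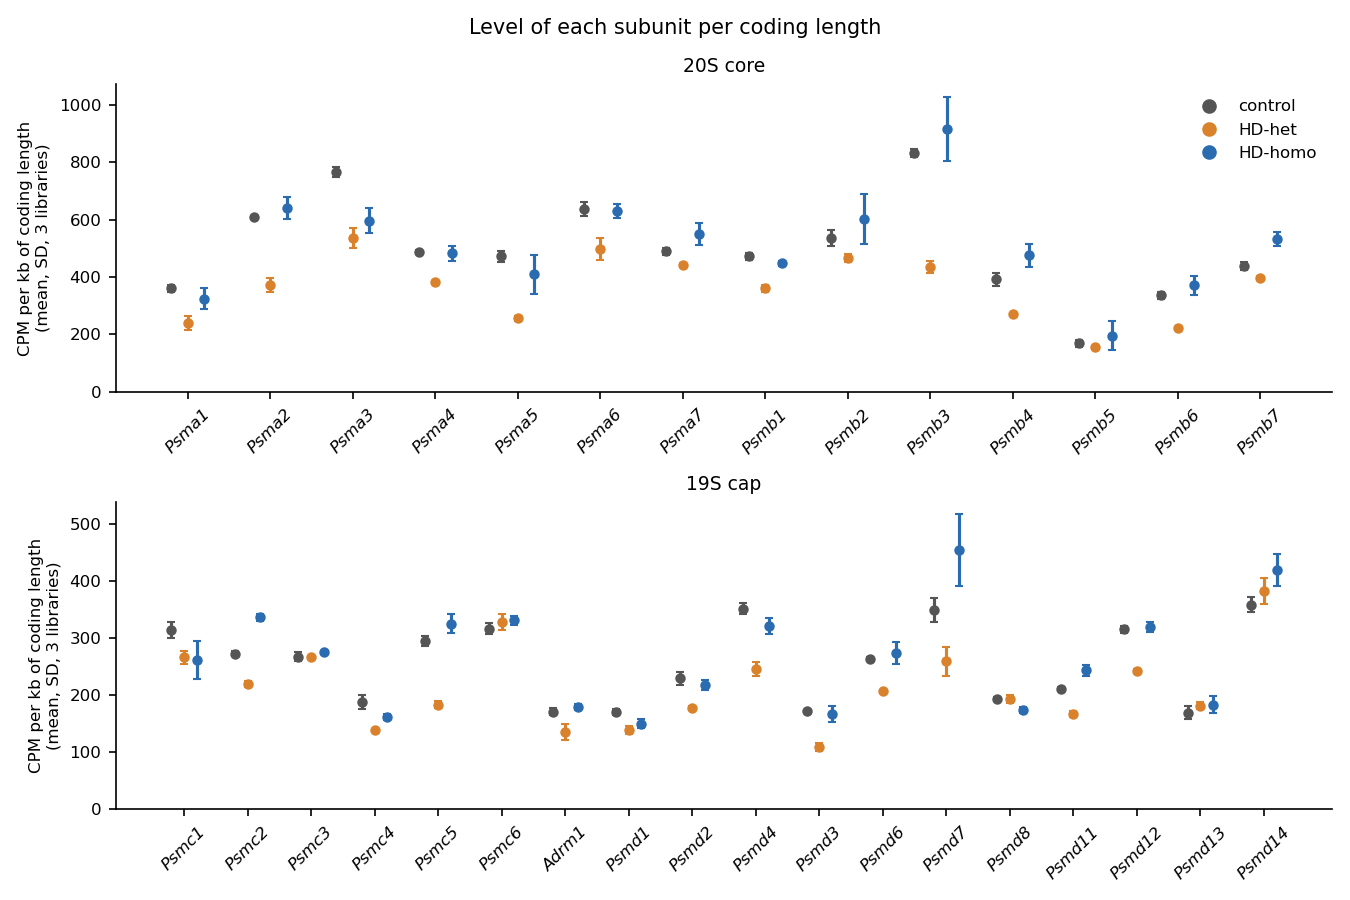
Level of each core subunit (top) and cap subunit (bottom) in CPM per kb of coding length, as mean and SD of 3 libraries per line, with axes starting at 0. Core subunits lie above most cap subunits, with medians of 479.9 and 266 CPM per kb in control, and HD-het lies below the other lines for most genes.

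The wider pathway was described from a list of 45 genes, 44 of which could be tested. Of these, 17 (38.6%) were lower and 6 (13.6%) higher in HD-het than in control, against 29.1% and 31.0% of all genes. For HD-homo, 8 (18.2%) were lower and 12 (27.3%) higher against control, where all genes gave 22.3% and 23.3%. Against HD-het, 20 (45.5%) were higher and 8 (18.2%) lower, where all genes gave 34.6% and 32.8%. The immunoproteasome subunits, which replace the constitutive catalytic ones after interferon, were all higher in HD-homo than in control. Psmb10, the counterpart of Psmb7, gave 14.2, 13.8 and 17.4 CPM in control, 11.8, 10.8 and 11.5 CPM in HD-het and 42.6, 36.6 and 46.3 CPM in HD-homo libraries (log2 difference of HD-homo from control 1.47 ± 0.12, SE, adjusted p = 1.82e-06, edgeR). HD-homo lay far above the other lines, which did not overlap each other either.

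Psmb8, the counterpart of Psmb5, was higher by 0.98 on the log2 scale (adjusted p = 0.0285, edgeR), at 1.26 to 3.28 CPM in HD-homo and 1.05 to 1.07 CPM in control libraries. Its HD-het libraries, at 0.742 to 1.28 CPM, overlapped those of HD-homo, and HD-homo replicate 3 was the highest. Psmb9, the counterpart of Psmb6, had counts of 1, 2 and 3 in control, 3, 2 and 2 in HD-het and 19, 13 and 36 in HD-homo libraries (adjusted p = 8.29e-04 against control, edgeR), so that it was above the level of a few counts in HD-homo only.

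Among ubiquitin genes, Rps27a, which encodes ubiquitin fused to a ribosomal protein, was lower in HD-het than in control by -0.71 on the log2 scale and higher in HD-homo by 0.32. The 13 tested genes that bind or regulate the proteasome did not share the direction of most subunits. In HD-het against control 3 (23.1%) were lower and 2 (15.4%) higher, and in HD-homo against HD-het 3 were higher and 4 lower. Of 12 shuttle factors and segregase genes, 8 (66.7%) were lower in HD-het and 0 higher, against 29.1% and 31.0% of all genes, with Ubqln4 at -1.06. Ubqln4 gave 80.6, 74.7 and 83.2 CPM in control and 38.7, 32.3 and 43.4 CPM in HD-het libraries, without overlap. Vcp, the segregase that extracts ubiquitinated proteins, was lower in both mutant lines, by -0.20 for HD-het (adjusted p = 0.0490) and -0.36 for HD-homo (adjusted p = 0.0037, edgeR).

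Nfe2l1, which encodes NRF1, was higher in HD-het, where most subunits were lower. It gave 83.6, 84.8 and 58.4 CPM in control, 145, 147 and 168 CPM in HD-het and 67.7, 48.8 and 66.2 CPM in HD-homo libraries. HD-het lay above the other lines, which overlapped, with a log2 difference from control of 1.02 ± 0.16 (SE, adjusted p = 2.03e-04, edgeR), and Sel1l, part of the membrane complex that handles NRF1, was higher by 1.30. Syvn1, on the same list, did not pass (log2 difference 0.16, adjusted p = 0.543, edgeR). Of the 10 genes of that list, on transcription and NRF1 control, 4 (40%) were higher in HD-het and 2 (20%) lower, against 31.0% and 29.1% of all genes. Nfyb, which encodes an NF-Y subunit, was lower in HD-het by -0.70 (adjusted p = 2.76e-05, edgeR), and Nfya and Nfyc did not pass.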

How the data were processed

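Ribosome-protected fragments from 9 libraries (3 per line) were sequenced by the authors. Per the submitters' processing notes, cutadapt, Bowtie 1.0.1 and the mm10 build were used. The deposited table holds whole-number counts per gene, not normalized. The counting program, annotation, strand and treatment of reads with several matches are not given in the sources used here, and 283 rows stand under older symbols.

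From the counts, TMM factors, filtering by group and quasi-likelihood tests were computed with edgeR 4.0.16 (limma 3.58.1, R 4.3.3) on all 9 libraries and all genes, with Benjamini-Hochberg adjustment at 0.05. CPM are counts per 1e6 of the TMM-scaled total. In a library, 3 counts, the most that a count of 0 allows, correspond to 0.0714 to 0.142 CPM, covering counting error only. Coding lengths were those of the longest RefSeq coding sequence (GRCm38.p6), since no protein table was used here. Windows of 26 bases were matched to the whole genome.

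The members and lists were chosen with earlier results of these data known. Values in every library were given for the catalytic subunits, activators, inhibitor, Adrm1, Pomp and, in each comparison, the up to 5 largest calls in each direction. Other values by library (Psmb10, Nfe2l1 and Ubqln4) were chosen after the values were seen. The fits were tested on simulated data. Alternatives were total counts, DESeq2 1.42.0, filters, the 6 libraries compared, a replicate block, each library left out and, added after seeing the data, offsets for coding length and GC and removal of duplicate rows. Some items of the lists and sequences are not reported here.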

Additional observations from a re-analysis of the deposited data

How the results depend on the processing

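In HD-het against control 28 to 32 members were lower when 1 library was left out, with 0 to 1 higher, and the core median log2 difference ran from -0.50 to -0.44. In HD-homo against control 1 to 5 were lower and the core median ran from 0.014 to 0.14. Of the calls, 27 of 30, 12 of 19 and 32 of 37 held in all 18 alternatives in the 3 comparisons.

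Scaled by total counts, medians in HD-het against control were -0.39 over members and -0.50 in the core. HD-homo against control then had 1 member lower and a cap median of 0.075, and HD-homo against HD-het had medians of 0.48 in the core and 0.42 in the cap. The log2 ratios of sums were -0.52 for the core in HD-het, -0.33, 0.058 and 0.39 for the cap, and 0.88 for activators in HD-homo against HD-het, with HD-het medians per kb of 367 (core) and 195.5 (cap). With no filter the HD-het medians were -0.37 and -0.49 (core). With DESeq2, or with at least 10 counts in every library, 1 member (Psmd8) was lower in HD-homo against HD-het.

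With offsets for coding length and GC, chosen after seeing the data, 1 member (Psma8) was higher in HD-het than in control, with medians of -0.29 and -0.37 (core). The cap median in HD-homo against control was 0.012, and HD-homo against HD-het had 1 member lower, a core median of 0.25 and an activator median of 0.89. With the median level of a class in place of its sum, the core gave -0.39 and 0.12 against control, the cap -0.39, 0.069 and 0.46, and the activators -0.16 in HD-het and 0.40 in HD-homo against HD-het. The cause of these shifts was not tested.

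Differences that changed sign had not passed the test. In HD-het against control these were Psmd10 (-0.016 with total counts, -0.00305 with no filter, -0.020 to 0.077 with 1 library left out), Psme2 (0.054 with offsets, -0.14 to 0.010 with 1 library left out) and Psme2b (0.051 and -0.14 to 0.011). In HD-homo against control they were Psmb5 (-0.012 to 0.32 with 1 library left out, the lowest without HD-homo replicate 1), Pomp (-0.012 to 0.088 with 1 library left out, the lowest without HD-homo replicate 3, and -0.048 with offsets) and Psma2 (-0.010 with offsets). In HD-homo against HD-het they were Psmc1 (0.054 with total counts, -0.092 to 0.077 with 1 library left out) and Psme4 (0.20 with offsets, adjusted p = 0.0489 by edgeR).

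Libraries with the same replicate number did not deviate together (correlations of -0.36 to 0.17 over 9 pairs), so the numbers were not taken as pairs. With the replicate block 30 members were lower in HD-het, 13 were higher and 1 lower in HD-homo against control, and 37 were higher in HD-homo against HD-het. Depth limited Psma8, Psmb8, Psmb9 and Psmb11, which were at a few CPM or less.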
